A study of Mus musculus with 2 samples.

Results

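Clathrin-mediated endocytosis was examined through 10 genes of its coat, scission and adaptor machinery: the clathrin light chains Clta and Cltb, the heavy chain Cltc, the dynamins Dnm1, Dnm2 and Dnm3, the amphiphysins Amph and Bin1, and the AP-2 adaptor subunits Ap2a1 and Ap2b1. The genes were taken by symbol, and all 10 were found among the 55536 annotated genes of the tables. The samples were left cerebral cortex from 2 female B6CASTF1/J mice (C57BL/6J crossed with CAST/EiJ), both 36 days old, from which total RNA was sequenced. The labels put them in 1 group and name no treatment, with 1 library per mouse, so levels and isoforms are described for each mouse and no p-value was computed. The labels number a separate animal for each library but give both the same donor record, and the libraries were read as coming from 2 mice. Replicate 1 held 29417186 and replicate 2 held 35188766 expected counts.

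Clathrin triskelia, each built of heavy chains with light chains bound to them, assemble into a cage around a budding vesicle, while the AP-2 complex links the cage to cargo and to the plasma membrane lipid PIP2. Amphiphysins bend the neck of the bud through their BAR domains and bring in dynamin, a GTPase that assembles around the neck and cuts the vesicle free. At the nerve terminal this machinery retrieves synaptic vesicle membrane after release, and several of its genes carry exons that neurons include and most other cells skip.

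The optional exons of the light chains are classic examples of such neuronal inserts, so their sequences are given first. Each is written 5′ to 3′ on the coding strand from the GENCODE M21 transcript sequences of build mm10, with the exon in capitals and 12 bases of the neighbouring exons in lower case. The reference is C57BL/6J, and the CAST/EiJ allele is not shown. Clta carried 2 such exons, of 54 bases (chr4:44030215-44030268, plus strand) and 36 bases (chr4:44031400-44031435, plus strand), and Cltb carried 1 of 54 bases (chr13:54597026-54597079, minus strand). All 3 lie wholly in coding sequence and are multiples of 3 bases long. The neighbouring bases of the Clta exons are those of Clta-204 for the 54-base exon and Clta-203 for the 36-base exon. Each of these transcripts holds only 1 of the 2 exons. In Clta-205, which holds both, the 54-base exon is joined directly to the 36-base exon, so 1 junction of each differs from that printed.
Clta 54-base exon: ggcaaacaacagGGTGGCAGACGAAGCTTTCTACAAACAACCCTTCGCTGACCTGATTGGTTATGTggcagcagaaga
Clta 36-base exon: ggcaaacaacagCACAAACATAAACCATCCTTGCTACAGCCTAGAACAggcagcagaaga
Cltb 54-base exon: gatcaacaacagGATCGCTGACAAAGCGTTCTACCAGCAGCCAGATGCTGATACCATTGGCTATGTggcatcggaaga
The 54-base exons of Clta and Cltb matched at 37 of 54 positions (68.5%).

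The level of each gene is given in TPM as the authors deposited it, which gives a gene's part of the transcript pool after correction for length, and the mean ± SD is over the 2 mice. In bulk tissue, fewer cells of a type and less RNA per cell cannot be told apart. All 10 genes were expressed in both mice, and together they took 1686 TPM in replicate 1 and 1548 TPM in replicate 2 (1617 ± 97.3 TPM, SD, n = 2). From the highest to the lowest mean the order was Dnm1, Cltc, Ap2a1, Cltb, Clta, Ap2b1, Bin1, Amph, Dnm3 and Dnm2. Of the neighbours in that order, Clta and Ap2b1 changed places between the mice. The values of Ap2b1 and Bin1 overlapped, although Ap2b1 was the higher in each mouse, and every other pair of neighbours had values that did not overlap. The order depended on the measure. Over protein-coding transcripts alone Ap2a1, at 109.6 and 106 TPM, stood below both Cltb and Clta in each mouse. In the authors' second transcript table Bin1, at 184.5 and 168.3 TPM, stood above Ap2b1, at 162.4 and 159.3 TPM. The deposited expected count of each of the 10 genes was a whole number to the 2 decimals printed.

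**Figure D1:**
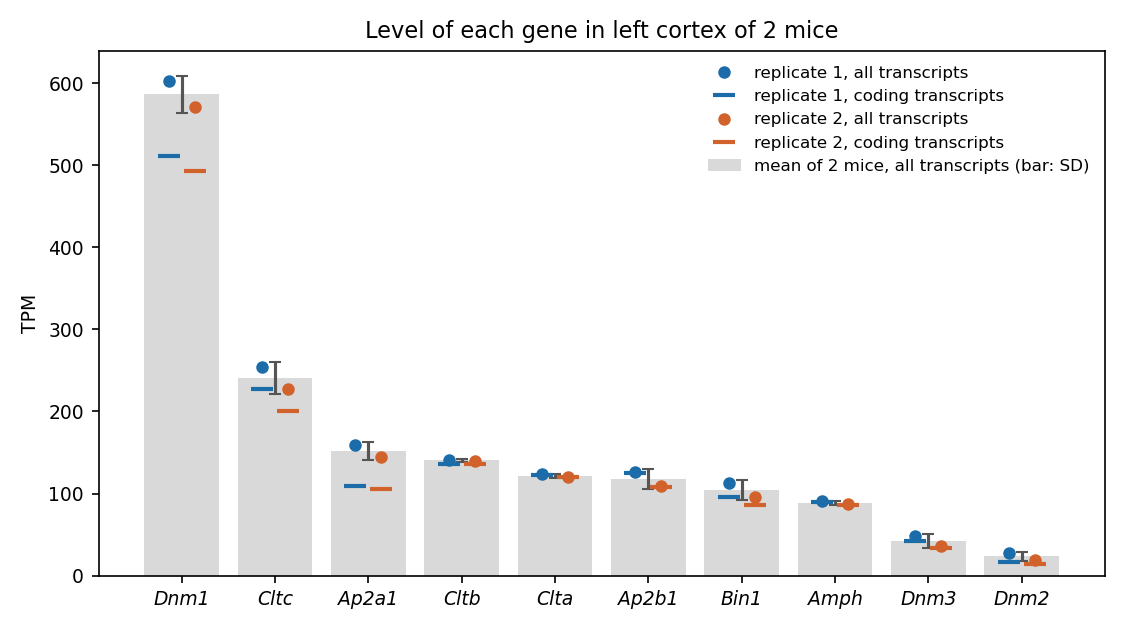
Level of each of the 10 genes in TPM (y axis), with genes on the x axis in order of their mean. Grey bars are means of the 2 mice with SD, points are the mice (replicate 1 blue, replicate 2 orange) and short lines are the sums over protein-coding transcripts alone; Dnm1 stands at 602 and 570 TPM, and the lines of Ap2a1 and Dnm1 lie furthest below their points.

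The clathrin coat was represented by all 3 of its genes. Cltc, the heavy chain (ENSMUSG00000047126.17, chr11:86694351-86757565), stood at 254 TPM in replicate 1 and 227 TPM in replicate 2, from 22734 and 27207 counts (241 ± 19.1 TPM). It ranked 227 among the 12754 nuclear protein-coding genes that reached 1 TPM in each mouse. Cltb, light chain b (ENSMUSG00000047547.14, chr13:54592401-54611344), stood at 141.4 and 139.4 TPM (140.4 ± 1.44 TPM), and Clta, light chain a (ENSMUSG00000028478.18, chr4:44004452-44032846), at 123 and 120.02 TPM (122 ± 2.26 TPM). Cltb was the higher light chain in each mouse, and Clta took 46.6% and 46.3% of the light chain TPM (46.4% ± 0.208). The light chains together came to 1.04 times the heavy chain in replicate 1 and 1.14 times in replicate 2 (1.09 ± 0.0714). This ratio moved to 1.38 in the authors' second transcript table. It rests in part on short models of Cltc. Cltc-203, of 898 bases, took 17.7% and 17.4% of the Cltc TPM. The noncoding Cltc-204, of 529 bases, took 9.22% and 10.3%, against 0% in the second table. Over protein-coding transcripts alone the ratio was 1.14 and 1.28, with Cltc-203 still counted.

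The light chain exons shown above were included in most transcripts of both mice. The share of an exon is the TPM of annotated transcripts that hold it over the TPM of those that hold it or skip it. The 54-base exon of Clta was held by 88.4% in replicate 1 and 89.7% in replicate 2 (89.1% ± 0.860), and its 36-base exon by 77.1% and 81.9% (79.5% ± 3.39). The 54-base exon of Cltb was held by 81.6% and 82.3% (82.0% ± 0.481). In the second transcript table the 3 shares were lower, at 72.0%, 68.2% and 76.0%, and still above 50% in each mouse. Most transcripts of each light chain gene thus carried the neuronal insert in both tables, while its exact share differed between the tables by more than between the mice.

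Clta could also be divided by how its exons were combined. Transcripts with both exons (Clta-205) took 71.5% of Clta in replicate 1 and 77.6% in replicate 2 (74.6% ± 4.31). Transcripts with the 54-base exon alone (Clta-204) took 16.9% and 12.05%, those with the 36-base exon alone (Clta-203) took 5.60% and 4.29%, and those with neither took 5.96% and 6.05%. The share with neither was 19.4% ± 0.689 in the second table, where Clta-202 took 16.7% in replicate 1, against 0 TPM in the first table. The form with both exons led in each mouse and in each table.

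Cltb was led by Cltb-201, the form with the insert, at 79.5% ± 1.16 of its gene. Cltb-202, which skips the insert and has a longer model of 2186 bases, took 17.5% ± 0.314 of TPM but 31.0% of counts. Cltc was led by Cltc-202, whose coding sequence spans 5025 bases, at 70.1% and 69.9%. In the second table Cltc-201, of 5037 coding bases, led instead at 48.5%, so the split between these full-length models depended on the quantifier. A 21-base exon of Cltc (chr11:86701061-86701081, minus strand) had a share of 19.9% and 19.7% (19.8% ± 0.127), and it is printed because it is the only optional coding exon in the heavy chain models.
Cltc 21-base exon: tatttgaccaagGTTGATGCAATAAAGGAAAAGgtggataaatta
The only model with that exon is Cltc-203, a fragment of 898 bases that held 674 and 797 counts, against 21802 and 26087 counts in the models that skip it. Its share therefore rests on the length correction of a short model, and it was 13.0% in the second table.

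The dynamins were dominated by Dnm1, the neuronal dynamin (ENSMUSG00000026825.17, chr2:32308471-32353338). Dnm1 stood at 602 TPM in replicate 1 and 570.4 TPM in replicate 2, from 32606 and 42021 counts (586 ± 22.5 TPM), and ranked 44 among the 12754 expressed nuclear protein-coding genes. Dnm3, a dynamin of brain and testis (ENSMUSG00000040265.16, chr1:161982453-162478034), stood at 48.1 and 36.4 TPM (42.3 ± 8.29 TPM). Dnm2, the dynamin found in most tissues (ENSMUSG00000033335.17, chr9:21424908-21507759), stood at 27.4 and 19.5 TPM (23.4 ± 5.57 TPM) and ranked 4648. Each mouse had the order Dnm1, Dnm3, Dnm2. Of the dynamin TPM, Dnm1 took 88.9% and 91.1% (90.0% ± 1.57), Dnm3 took 6.46% ± 0.912 and Dnm2 took 3.58% ± 0.655. Dnm1 stood at 2.44 ± 0.10 times Cltc, the heavy chain of the coat it cuts free.

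Dnm1 and Dnm2 each hold a pair of 139-base exons, in the part that encodes the stalk through which dynamins assemble. The pairs are printed because their shares were uneven in Dnm1 and closer to even in Dnm2. Capitals mark the bases at which the upstream and downstream exon of the same gene differ. In transcript order the Dnm1 exons lie at chr2:32334682-32334820 and chr2:32333066-32333204 (minus strand), and the Dnm2 exons at chr9:21478899-21479037 and chr9:21480407-21480545 (plus strand).
Dnm1 upstream exon: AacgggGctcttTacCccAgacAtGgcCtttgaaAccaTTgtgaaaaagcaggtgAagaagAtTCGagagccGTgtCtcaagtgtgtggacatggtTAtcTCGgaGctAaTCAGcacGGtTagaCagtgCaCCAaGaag
Dnm1 downstream exon: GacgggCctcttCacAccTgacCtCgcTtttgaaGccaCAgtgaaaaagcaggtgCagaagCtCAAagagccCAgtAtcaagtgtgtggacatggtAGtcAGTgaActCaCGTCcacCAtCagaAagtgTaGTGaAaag
Dnm2 upstream exon: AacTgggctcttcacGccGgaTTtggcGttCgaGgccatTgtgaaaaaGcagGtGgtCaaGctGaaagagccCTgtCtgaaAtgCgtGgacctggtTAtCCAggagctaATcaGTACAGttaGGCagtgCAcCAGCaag
Dnm2 downstream exon: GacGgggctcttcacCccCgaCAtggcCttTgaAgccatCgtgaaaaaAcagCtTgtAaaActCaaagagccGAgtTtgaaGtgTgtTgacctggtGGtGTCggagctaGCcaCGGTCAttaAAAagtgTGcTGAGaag
Every annotated Dnm1 or Dnm2 transcript that was compared here held 1 of its pair, except Dnm1-216 (0.369% ± 0.028 of Dnm1 TPM). It holds only the first 52 bases of the downstream exon (chr2:32333153-32333204).
The upstream and downstream exons differed at 39 of 139 positions in Dnm1 and at 44 of 139 in Dnm2. Across the genes, the upstream exons were 79.1% identical and the downstream exons 72.7%.

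In Dnm1 the downstream exon was held by 80.5% of TPM in replicate 1 and 80.4% in replicate 2 (80.4% ± 0.052), and the upstream exon by 19.5% in each mouse. The second table gave 70.6% ± 1.41 and 29.0% ± 1.41 for the same exons. In Dnm2 the downstream exon was held by 57.6% and 56.8% (57.2% ± 0.552) and the upstream exon by 42.4% and 43.2%, and the second table gave 60.7% and 39.3%. Over all transcripts the downstream exon led in both genes, both mice and both tables. The transcripts behind these shares held 23744 and 30832 counts for the Dnm1 downstream exon, against 555 and 638 for that of Dnm2. In Dnm2 they include Dnm2-205, a noncoding model, and over coding transcripts alone the share was 52.0% and 55.3%. In replicate 1 that coding lead rests on Dnm2-208, a fragment of 744 bases at 1.23 TPM from 14.8 counts, so the order in Dnm2 was not settled.

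The dynamin genes also held 12-base exons, short enough to add only a few residues, and these are shown with their neighbouring bases to make the junctions visible.
Dnm1 12-base exon: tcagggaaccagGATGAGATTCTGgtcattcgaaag
Dnm2 12-base exon: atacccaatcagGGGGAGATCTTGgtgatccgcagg
Dnm3 12-base exon: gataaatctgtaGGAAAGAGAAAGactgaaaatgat
The Dnm1 exon (chr2:32323179-32323190, minus strand) was held by 93.5% and 93.2% of TPM (93.3% ± 0.197). The Dnm2 exon (chr9:21490658-21490669, plus strand), which shares 8 of 12 bases with that of Dnm1, was held by 73.9% and 70.4% (72.1% ± 2.51). The Dnm3 exon (chr1:162045386-162045397, minus strand) was held by 76.7% and 74.2% (75.5% ± 1.82). These 3 exons were held by most of the TPM in both tables. Dnm1-202 is the only compared model that skips the Dnm1 exon, and Dnm3-202 the only model that holds the Dnm3 exon. The shares of these exons are therefore not independent of the shares of those transcripts given below. Dnm2 has another 12-base exon at the same junction (chr9:21489910-21489921, plus strand), held only by Dnm2-203 and listed at 0% in both mice and both tables.

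Dnm1-201 was the leading Dnm1 transcript at 49.995% in replicate 1 and 49.7% in replicate 2, and Dnm1-214 followed at 14.4% ± 0.278. The Dnm1 models also end their coding sequence at 3 different positions, which changes the end of the proline-rich tail that binds SH3 domains. The ending of Dnm1-201 (coding length 2553 bases) took 69.4% and 67.9% of the TPM of these models (68.7% ± 1.06). The ending of Dnm1-214 and Dnm1-205 took 24.1% and 25.3% (24.7% ± 0.851), and that of Dnm1-202 took 6.70% ± 0.205. In the second table the first 2 endings took 71.9% and 26.4%, close to these values, although Dnm1-214 itself went from 14.4% to 1.55% and Dnm1-205 from 6.24% to 19.2%. These 2 transcripts share an ending and differ in their 139-base exon, so the tables were closer on the ending than on how it was combined with that exon. The ending of Dnm1-202 was an exception, at 1.71% in the second table.

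Dnm3 was led by Dnm3-202, which holds the 12-base exon, at 68.9% and 69.2%. Dnm2 had no clear leader: Dnm2-202 led in replicate 1 at 18.7% and Dnm2-201 in replicate 2 at 22.3%, from 321 and 374 counts. Dnm2-211 took 17.6% and 13.8%, and Dnm2-210, a model with a retained intron, took 17.7% and 9.79%. The order of the Dnm2 transcripts was not resolved by 2 libraries at this depth.

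Amph encodes amphiphysin, the brain form that binds dynamin and clathrin (ENSMUSG00000021314.12, chr13:18948205-19150921), and it stood at 90.4 TPM in replicate 1 and 86.8 TPM in replicate 2 (88.6 ± 2.55 TPM). Bin1, or amphiphysin 2 (ENSMUSG00000024381.16, chr18:32377230-32435737), which in brain has neuronal forms and in muscle shapes the T-tubules, stood at 113 and 95.7 TPM (104 ± 12.2 TPM). Over all transcripts Amph stood at 0.80 and 0.907 of Bin1 (0.853 ± 0.0757). Over protein-coding transcripts alone the values were 89.2 and 86.3 TPM for Amph and 95.9 and 86.0 TPM for Bin1, and the ratio lay on either side of 1, at 0.930 and 1.003. Amph and Bin1 coding transcripts therefore did not differ in level in a direction that both mice shared.

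Bin1 held more optional coding exons than the light chains. Its neuronal forms carry a run of exons that encodes the clathrin- and AP-2-binding region. Bin1-201, the longest model with 1764 coding bases, holds all of them and took 57.4% and 56.2% of the gene (56.8% ± 0.868). The 93-base exon (chr18:32414945-32415037) was held by 67.7% and 62.6% of TPM (65.1% ± 3.64), and the 129-base exon that opens the run (chr18:32426224-32426352) by 78.1% and 76.1% (77.1% ± 1.41). The next 2 exons of the run, of 108 and 24 bases, each had a share of 65.3% ± 3.40, and the second 108-base exon a share of 69.7% ± 4.19. The 72-base exon after the run (chr18:32431671-32431742) was held by 89.0% and 82.2%. Both the second 108-base exon and the 72-base exon are also held by Bin1-204, a retained-intron model. Over coding transcripts alone the second 108-base exon had the same 65.3%, and the 72-base exon was held by 87.0% and 80.2%. All 6 shares stayed above 50% in each mouse and in the second table, where that of the 93-base exon was 55.0%.

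Because Bin1-201 alone holds the 93-base, first 108-base and 24-base exons, their shares are not independent of each other. Of the shorter forms, Bin1-205 took 11.02% and 17.7% and Bin1-202 took 8.82% and 11.8%, each the higher in replicate 2. Bin1-206 took 7.54% and 3.67% in the first table but 24.96% in the second, so the make-up of the forms that skip all or part of the run was not settled. Amph had only 2 protein-coding models, with coding lengths of 2070 and 2058 bases. The longer, Amph-204, took 57.3% and 66.5% (61.9% ± 6.53) and Amph-201 took 41.3% and 32.9% (37.1% ± 5.997). The second table turned this around, with Amph-201 at 58.8% and Amph-204 at 32.3%.

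**Figure D2:**
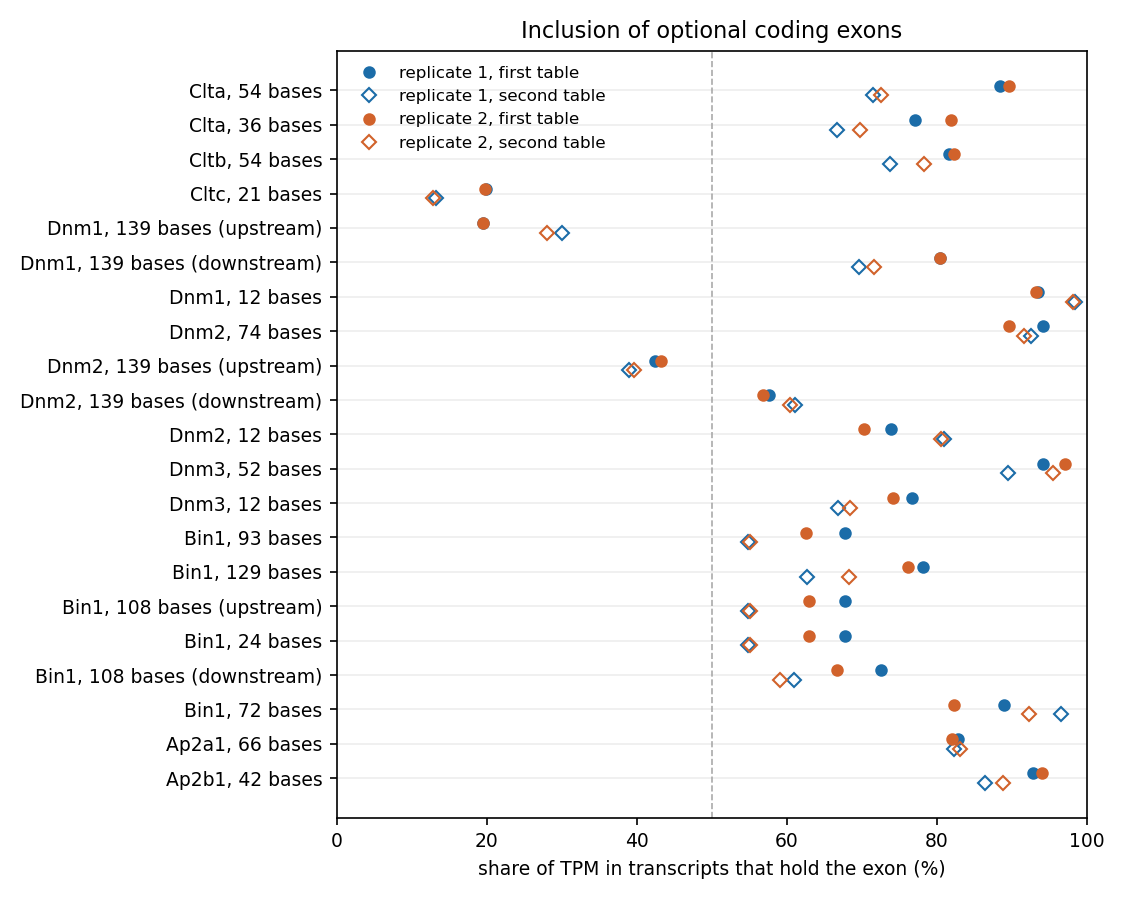
Share of TPM (x axis, percent) in transcripts that hold an optional coding exon, for 21 of the 24 such exons, named on the y axis by gene and length. Filled points are the first transcript table and open diamonds the second, blue for replicate 1 and orange for replicate 2; all exons kept their side of the dashed 50% line between the tables, while the distance between tables was often larger than that between mice.

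AP-2 is a complex of 4 subunits, of which Ap2a1 encodes a large alpha subunit that binds membrane and Ap2b1 the beta subunit that binds clathrin. Ap2a1 (ENSMUSG00000060279.14, chr7:44900373-44929496) stood at 159 TPM in replicate 1 and 144 TPM in replicate 2 (152 ± 10.8 TPM). Ap2b1 (ENSMUSG00000035152.14, chr11:83299024-83405035) stood at 126 and 109 TPM (117.5 ± 12.4 TPM). The beta subunit was at 0.793 and 0.755 of Ap2a1 (0.774 ± 0.0268), and the order was the same in the second table, at 0.579. Over protein-coding transcripts alone it turned around. Ap2a1 then stood at 109.6 and 106 TPM and Ap2b1 at 125 and 108 TPM, and the ratio was 1.08 ± 0.0877. The Ap2b1 sum includes Ap2b1-207, a fragment of 651 bases at 13.6 and 8.61 TPM from 141 and 120 counts. In replicate 2 the coding order rests on that fragment, so it was not settled which gene had more coding transcripts.

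Most of the noncoding TPM of Ap2a1 (31.2% and 26.3% of the gene) belonged to Ap2a1-205, a retained-intron model of 597 bases that was the second transcript of the gene. It held 43.7 and 33.7 TPM, or 27.5% and 23.4% of Ap2a1, from only 407 and 424 counts. In the second table noncoding models took 48.15% and 43.0% of Ap2a1. Ap2a1-205 took 23.5% and 18.8% there, which was not most of the noncoding part. In counts, retained-intron models made up 5.25% ± 0.798 of Ap2a1. The level of Ap2a1 among coding transcripts rested on Ap2a1-203, at 57.0% and 60.5% of the gene, and on Ap2a1-202, at 10.7% and 12.6%. These forms differ in a 66-base exon of Ap2a1 (chr7:44903462-44903527, minus strand), printed with the 42-base exon of Ap2b1 (chr11:83364795-83364836, plus strand) because each was included in most transcripts.
Ap2a1 66-base exon: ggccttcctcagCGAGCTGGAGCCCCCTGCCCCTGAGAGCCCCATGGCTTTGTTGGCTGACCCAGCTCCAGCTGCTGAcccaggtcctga
Ap2b1 42-base exon: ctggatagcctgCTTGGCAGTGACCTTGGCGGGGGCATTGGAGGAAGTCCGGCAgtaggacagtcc
The Ap2a1 exon was held by 82.8% and 82.1% of TPM (82.4% ± 0.503), and the second table gave 82.7%. The Ap2b1 exon was held by 92.8% and 94.0% (93.4% ± 0.818), and the second table gave 87.6%. Ap2b1-201, which holds it, led at 82.9% ± 2.92, ahead of Ap2b1-207, a fragment of 651 bases that took 10.8% and 7.92% of TPM from 141 and 120 counts.

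The other subunits of the complex were also expressed in both mice. Ap2m1, the mu subunit that reads tyrosine-based cargo signals, stood at 376 and 368 TPM. Ap2s1, the small sigma subunit, stood at 119 and 128 TPM, and Ap2a2, the other alpha subunit, at 87.9 and 86.7 TPM. Ap2a1 took 64.4% and 62.4% of the alpha subunit TPM (63.4% ± 1.42). That share counts the retained-intron models of Ap2a1. Its coding transcripts alone, at 109.6 and 106 TPM, stood closer to the level of Ap2a2, though still above it. In counts, which are not corrected for length, Ap2a2 was the higher, at 7373 and 9900 against 7198 and 9344 for Ap2a1.

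Across the 10 genes the annotation held 88 transcripts, 52 of them protein-coding. In 8 genes the leading transcript held at least 50% of the gene's TPM in both mice, and Dnm1 and Dnm2 were the exceptions. The count was 5 in the second table. The leading transcript was the same in both mice for 9 genes, all but Dnm2, and the same in both tables for 7, all but Cltc, Dnm2 and Amph. Amph apart, 9 genes held optional coding exons, 24 in all, of which 17 were multiples of 3 bases long. All 24 kept their side of 50% between the tables. The largest difference between the mice was 6.74 percentage points, against 17.0 between the tables.

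Retained-intron transcripts, which keep an intron and are not annotated as coding, were listed for 9 of the 10 genes, Clta being the exception. Their share of the gene's TPM was 28.2% in replicate 1 and 24.3% in replicate 2 for Ap2a1. It was 25.1% and 11.03% for Dnm2, 15.2% and 10.2% for Bin1, 7.89% and 4.78% for Dnm3 and 7.17% and 6.11% for Dnm1. Cltb, Amph, Ap2b1 and Cltc each had less than 4% in each mouse. The share was lower in replicate 2 in 9 of 9 genes, in both tables, against a background of 77% of all genes with such transcripts. Of retained-intron transcripts averaging 50 counts or more, the ratio was below 0 for 8 of 9 in these genes, against 79.5% of all such transcripts.

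A lower share in replicate 2 was thus found in most genes and is no result about these 10. The median share over 7076 genes was 11.1% in replicate 1 and 7.84% in replicate 2. The nuclear noncoding RNAs Malat1, Meg3 and Neat1 differed the same way, with log2 ratios (replicate 2 over replicate 1) of -0.95, -0.84 and -1.04. Their part in the retained-intron values was not tested.

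The 2 mice differed little in these genes. Each ratio is replicate 2 over replicate 1 on the log2 scale, in counts scaled by edgeR's TMM library sizes, with a 95% Clopper-Pearson interval that covers counting error only. None of the 10 genes (0 of 10) was 2-fold apart, a distance reached by 0.713% of all genes whose count averaged 100 or more. The number was also 0 of 10 at a log2 distance of 0.32, against 12.4% of all genes (6.43% higher and 5.92% lower in replicate 2). The ratio was above 0 for 7 of 10 genes, against 58.9% of all genes. Deposited TPM, which is scaled otherwise, was lower in replicate 2 for each of the 10 genes. The median TPM of the expressed nuclear protein-coding genes was lower as well, at 16.45 in replicate 1 and 14.19 in replicate 2. With TPM taken over nuclear protein-coding genes alone, only Ap2b1, Bin1, Dnm3 and Dnm2 were lower in replicate 2. The median ratio was 0.13 over the 10 genes and 0.04 over all 12615 genes compared, and all 10 lay in the central 95% of these, from -0.51 to 0.45.

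The highest ratios were those of Clta, at 0.21 (interval 0.13 to 0.29), Cltb, Ap2a1 and Amph, at 0.18 each, and Dnm1, at 0.17. Ap2b1 stood at 0.08 and Cltc at 0.07, next to the median of all genes. The 3 ratios below 0 were those of Bin1 at -0.02 (interval -0.08 to 0.04), Dnm3 at -0.11 (-0.17 to -0.06) and Dnm2 at -0.19 (-0.30 to -0.07). The interval of Bin1 spanned 0, and those of Dnm3 and Dnm2 did not. Over protein-coding transcripts alone Dnm2 stood at -0.01 and Bin1 at 0.08, and Dnm3 at -0.08, beside a median of 0.07 for all genes. Of the 10 genes, Dnm2 and Bin1 had the largest differences between the mice in retained-intron share in the first table. The part of these transcripts in the ratios was not tested. Scaling to the spike-ins moved the median of all genes from 0.04 to -0.42 and put all 10 ratios below 0, as it did 97.7% of all genes, from -0.65 for Dnm2 to -0.26 for Clta. Under that scaling 5 of 10 passed the log2 distance of 0.32, against 72.3% of all genes. Signs above 0 therefore hold only relative to the rest of the library.

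**Figure D3:**
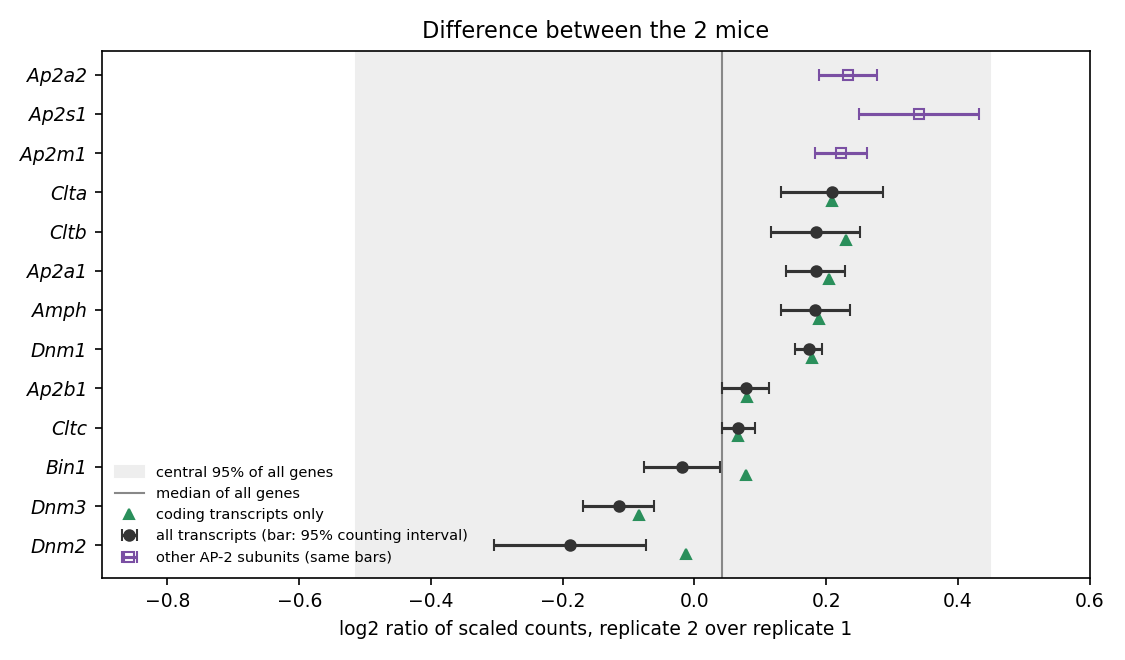
Log2 ratio of scaled counts, replicate 2 over replicate 1 (x axis), for the 10 genes and the 3 other AP-2 subunits (y axis). Points carry 95% counting intervals, triangles are protein-coding transcripts alone, and the grey band and line are the central 95% and the median of all genes under TMM scaling; all 10 genes lie inside the band, and under spike-in scaling all 10 ratios were below 0.

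Among 48 other genes of clathrin-mediated endocytosis, 47 reached 1 TPM in each mouse, and Epn3 was the exception. The highest were Hspa8, the uncoating chaperone, at 1035 and 928 TPM, Ap2m1, and the cargo adaptor Epn1 at 201 and 215 TPM. Pacsin1, a neuronal BAR domain protein, stood at 199 and 171 TPM, and Aak1, a kinase of the mu subunit, at 207 and 162 TPM. Hspa8 and Ap2m1 divided some reads with other genes. Of these and the 10 genes above, Dnm1 was the highest after Hspa8.

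Of the 45 whose count averaged 100 or more, none was 2-fold apart (0 of 45) and 2 passed the log2 distance of 0.32, against the 0.713% and 12.4% of all genes. These were Ap2s1, at a log2 ratio of 0.34, and Fnbp1l, an F-BAR protein, at -0.33. The next highest were Snx18 and Epn1, at 0.29 each, and the next lowest Numb at -0.30 and Fnbp1 at -0.20. The median was 0.0004, with 23 above 0 and 22 below. Ap2a2 stood at 0.23 and Ap2m1 at 0.22, so that all 5 AP-2 subunits, Ap2a1 at 0.18 and Ap2b1 at 0.08 included, had ratios above 0 under TMM scaling, against 58.9% of all genes, and all 5 were below 0 under spike-in scaling, against 97.7%.

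Several genes overlap others in the genome. The annotation placed 22 genes across 7 of the 10, of which 19 lie on the opposite strand and 13 of those had 0 counts in both mice. Dnm3os, the noncoding RNA opposite Dnm3, had 4 and 2 counts, against 5482 and 5785 for Dnm3. The most abundant neighbours were Ciz1, opposite Dnm1, with 1088 and 1115 counts, and Fuz, opposite Ap2a1, with 297 and 316. The labels call the libraries stranded, but the sources used here do not give the strand setting of the counting.

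The tissue label was checked against cell type markers. Neuronal markers (Syt1, Snap25, Rbfox3 and Tubb3) summed to 2301 TPM in replicate 1 and 2030.2 TPM in replicate 2, and oligodendrocyte markers to 1586 and 1192 TPM. Of tissues that should be absent, liver markers summed to 0.98 and 0.85 TPM and skeletal muscle markers to 5.39 and 5.71 TPM, nearly all of it Acta1 at 5.24 and 5.43 TPM. Choroid plexus markers summed to 72.7 and 9.82 TPM and red blood cell markers to 824 and 435 TPM, each higher in replicate 1, in all 3 genes of either list. Their part in the differences between the mice was not tested.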

How the data were processed

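For each library there is a table of genes and a pair of transcript tables. Expected counts, TPM, FPKM and bounds of TPM stand in the gene table and in the first transcript table, which adds the percent each transcript takes of its gene, all deposited by the authors (per the file headers). The second transcript table holds estimated counts and TPM from another quantifier, also deposited by the authors. Per the deposited notes, the build is mm10 with GENCODE M21 annotation. Column names are those RSEM and kallisto write, but the aligner, the programs' versions and the strand setting are not given in these sources. FPKM and bounds were not used.

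Groups and replicate numbers come from the labels, which number a separate animal and biosample for each library but share 1 donor record; they were read as 2 mice. Levels are deposited TPM. Expected counts were rounded for TMM library sizes (edgeR 4.0.16, R 4.3.3) and log2 ratios with a prior count of 2. Replicates held 29417186 and 35188766 counts; without molecular identifiers, intervals cover counting error only. Optional coding exons are those that at least 1 annotated transcript skips with an intron, and exon shares use the first transcript table. Reads were assigned with the C57BL/6J reference, and loss of reads from the CAST/EiJ allele was not tested. Shares were computed with Python 3.11.15, and the steps were tested on simulated data. The alternatives were DESeq2 1.42.0 size factors, spike-in totals, the second table, counts in place of TPM, coding transcripts alone and each mouse alone.

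Genes named outside the 10 follow a rule: the AP-2 subunits, the 5 highest in the list, the 3 largest ratios each way, any below 1 TPM, and genes that overlap a member. Malat1, Meg3 and Neat1 fall outside it, picked with their values in view. The members and lists were chosen with earlier results of these data known.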

Additional observations from a re-analysis of the deposited data

How the results depend on the processing

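With 2 mice, error is known only roughly. No paired analysis was possible because there is 1 group. Coding transcripts alone were chosen after seeing the data for levels, ratios and exons outside the light chains. Between the mice, 5 members passed a log2 distance of 0.32 under spike-in scaling (72.3% of all genes did), against 0, while counts at 2-fold stayed at 0; member ratios kept their sign in 10 of 10 under DESeq2 size factors, 9 in the second table, 9 over coding transcripts and 3 under spike-in scaling. The summed level was 2496 TPM in the second table, 1430.0 TPM over coding transcripts, 3647 TPM when TPM was taken over nuclear protein-coding genes, and 107293 expected counts. The Clta share was 46.8% (second table), 43.0% (counts) and 47.2% (coding transcripts). The light to heavy chain ratio was 1.38, 0.254 and 1.21 in the same order, Amph to Bin1 0.744, 1.24 and 0.967, and Ap2b1 to Ap2a1 0.579, 1.51 and 1.08. Counts are not corrected for length, which the longer genes gain from. The Dnm1 share of dynamins was 84.3% in counts. The second table gave 72.0% and 68.2% for the Clta exons, 76.0% for the Cltb exon, and 5 genes with a leading transcript of at least 50%; the cause was not tested. Of 42 alternatives for the other exons, 26 moved by more than the SD between mice, 11 of them upward. Leaving out either mouse gives the other mouse's value, as printed in the report.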
